A study of Mus musculus with 24 samples.

Results

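The comparison set 12 arrays of microdissected distal convoluted and connecting tubule (DCT/CNT) against 12 arrays of cortical collecting duct (CCD) from mouse kidney, over all 6 times of day at which tissue was taken. These are all 24 arrays of the series, and each of 18194 genes was represented by the probe set that carries its symbol alone and has the highest mean over the 24 arrays. The arrays were chosen by their segment label, with no measured value used.

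The animals were male C57BL/6J mice housed under a cycle of 12 h light and 12 h dark, with no treatment but the collagenase used on the left kidney, and killed every 4 h at zeitgeber time (ZT, hours since lights on) 0, 4, 8, 12, 16 and 20. DCT/CNT and CCD were dissected by hand, RNA came from 5 mice per time, and each segment has 2 pools at each time. An amount of 10 ng of total RNA per pool was amplified before hybridisation. The labels state neither whether the 2 pools hold different animals nor whether both segments came from the same animals, so p-values measure the spread between pools. The arrays hold 2 neighbouring tubule types in the DCT/CNT sample and several cell types in each segment, and in such bulk RNA fewer cells of a type and less RNA per cell cannot be told apart.

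The distal convoluted tubule reabsorbs sodium chloride through the thiazide-sensitive cotransporter and takes up magnesium. The connecting tubule that follows it reabsorbs calcium under the control of parathyroid hormone and vitamin D and begins sodium uptake through the epithelial sodium channel. In the cortical collecting duct, principal cells carry that sodium channel and the vasopressin-regulated water channels, and intercalated cells secrete acid or bicarbonate. The connecting tubule and the collecting duct share both kinds of cell, and they differ in origin: the tubule up to the connecting segment arises from the nephron, the collecting duct from the ureteric bud.

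All values are the deposited log2 values, on which a difference of 1 is a 2-fold ratio, and every difference is DCT/CNT minus CCD. Their spread was narrower in DCT/CNT arrays, with an interquartile range of 3.32 to 3.65 over all probe sets (median 3.50), than in CCD arrays, where it was 4.08 to 4.28 (median 4.22). Array medians were 5.80 to 5.89 in DCT/CNT and 5.83 to 5.87 in CCD, and the 2 pools of a group correlated at 0.988 to 0.995 across genes. The first principal component separated the segments and held 62.1% of the variance of the deposited values and 51.9% after quantile normalisation.

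The difference between segments depended on how bright a gene was. The genes were put into 10 groups of equal size by their mean over the 24 arrays. The median difference was 0.20 in the dimmest group, 0.41 in the next and -0.48 in the second brightest. After quantile normalisation, which gives every array the same distribution of values, the medians of the 10 groups lay between -0.03 and 0.07. Sizes below are on the deposited scale unless called normalised, and on that scale the median was -0.36 in the brightest group. What gave the arrays their unequal spread was not tested.

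**Figure D1:**
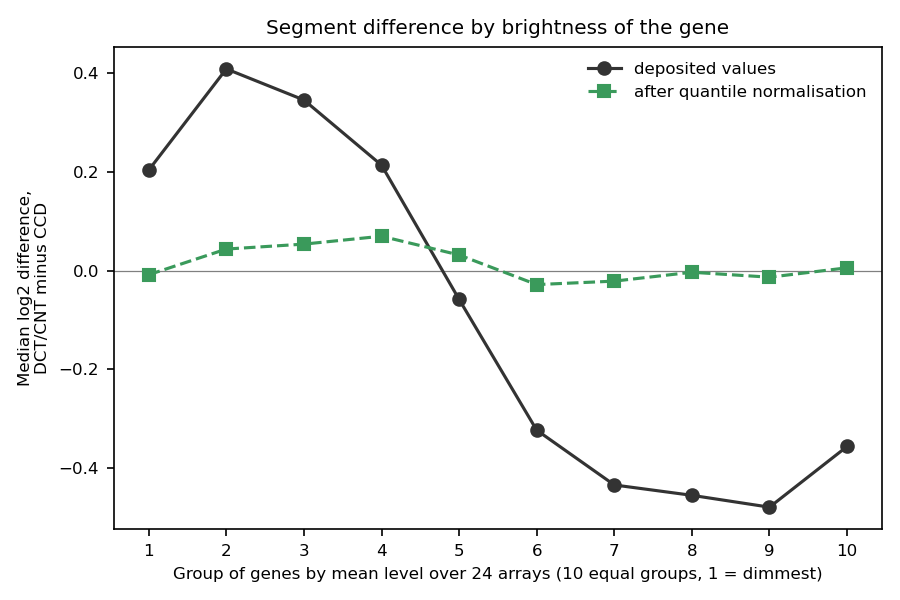
Median log2 difference (y axis, DCT/CNT minus CCD) of the genes in each of 10 equal groups by mean level over the 24 arrays (x axis, 1 is the dimmest), on the deposited values (circles) and after quantile normalisation (squares). The deposited medians go from 0.20 in group 1 and 0.41 in group 2 to -0.48 in group 9, and the normalised medians stay between -0.03 and 0.07.

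In a limma fit with segment and with ZT as a block, 5511 genes (30.3%) were higher and 8548 (47.0%) lower in DCT/CNT at a Benjamini-Hochberg adjusted p under 0.05. After quantile normalisation the counts were 6054 higher and 5740 lower, so the share of called genes that were higher was 39.2% on the deposited and 51.3% on the normalised values. Of the genes lower on the deposited values, 3886 were not lower after normalisation and 1087 of them were higher. A gene is therefore said to have risen or fallen below only where it was called in the same direction on both scales, which held for 3673 genes higher (20.2%) and 4662 lower (25.6%) in DCT/CNT. Of these 8335 genes, 7711 had the same sign at all 6 times, which a call made on the same arrays favours.

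A stricter call asked for a difference significantly beyond 2-fold on both scales (limma's treat test, adjusted p under 0.05). It was met by 104 genes higher (0.572%) and 154 lower (0.846%) in DCT/CNT. All 258 had the same sign at the 6 times, and in 248 of them no DCT/CNT pool overlapped a CCD pool. The call was made on the same pools and favours both properties. Over all genes the 12 and 12 pools did not overlap in 5056 (27.8%).

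**Figure D2:**
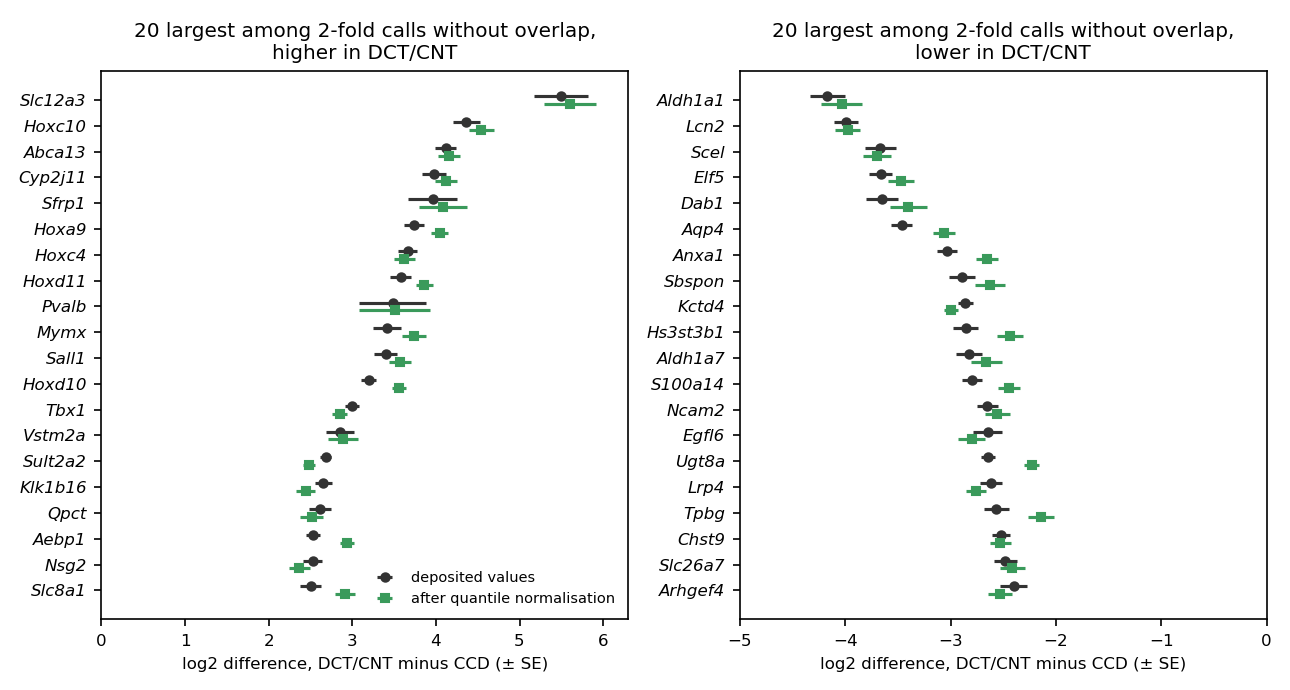
Log2 difference with its standard error (x axes, DCT/CNT minus CCD, n = 12 pools each) for the 20 largest differences in each direction among named genes with the 2-fold call and no overlap of pools, on the deposited values (circles) and after quantile normalisation (squares). The deposited differences run from 5.49 (Slc12a3) to 2.50 (Slc8a1) among the genes higher in DCT/CNT and from -4.17 (Aldh1a1) to -2.40 (Arhgef4) among those lower.

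The largest rise was in Slc12a3, the thiazide-sensitive sodium chloride cotransporter that defines the distal convoluted tubule. Its log2 value was lowest at 8.48, 11.35 in the median and highest at 12.09 in DCT/CNT pools, against 4.48, 5.33 and 6.01 in CCD pools. No pool of either segment reached the other, and the difference was 5.49 ± 0.32 (SE), a 45.1-fold ratio, on the deposited and 5.60 on the normalised values (adjusted p 3.33e-12 and 5.94e-12 by limma). The second probe set of the gene was called in the same direction.

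The 20 largest differences in each direction were taken among named genes that passed the 2-fold call and whose pools did not overlap, which fixes both properties. The highest adjusted p among them by limma was 9.9e-08 on the deposited and 3.99e-07 on the normalised values. Of the 21 genes among them with several probe sets, 18 had another one called in the same direction. Among all genes with the 2-fold call, 131 had several probe sets. Of those, 108 had another one called in the same direction and 11 had one called in the opposite direction. In 9 of the 40 the mean of the lower segment was under 4 on the log2 scale. No detection call was used here, so such a mean may lie near the arrays' background.

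Promoter stretches are shown for some of these 40 genes, since they passed the 2-fold call without overlap of pools. The 250 bases before the annotated start (RefSeq, GRCm38.p6) were searched on both strands for the GATA factor motif AGATAA, the grainyhead motif AACCNGTT, the AP-2 motif GCCNNNGGC, the oestrogen-related receptor motif TCAAGGTCA and the HNF1 motif GTTAAT. Of the 40 genes, 28 matched a promoter, 15 of those higher and 13 of those lower in DCT/CNT. AGATAA was present in 2 of the 15 higher (13.3%) and in none of the 13 lower, against 7.38% of 14453 promoters. Capitals mark the motif, each stretch is written 5′ to 3′ on the strand of the gene, and a match is a description of the letters only.
Slc12a3, chr8:94329044-94329094 (+), AGATAA: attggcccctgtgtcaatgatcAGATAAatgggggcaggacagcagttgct
Slc8a1, chr17:81738427-81738477 (-), AGATAA: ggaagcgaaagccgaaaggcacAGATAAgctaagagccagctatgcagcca
Pvalb, chr15:78204370-78204423 (-), GCCNNNGGC: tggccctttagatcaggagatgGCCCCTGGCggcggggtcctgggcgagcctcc
Aldh1a7, chr19:20727678-20727728 (-), GTTAAT: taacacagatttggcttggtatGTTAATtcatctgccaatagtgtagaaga
Tpbg, chr9:85842329-85842379 (+), GTTAAT on the other strand: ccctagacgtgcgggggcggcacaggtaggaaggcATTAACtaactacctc
The motif GCCNNNGGC was present in 4 of the 15 higher (26.7%) and 2 of the 13 lower (15.4%), against 18.3% of all promoters. GTTAAT was present in 1 of the 15 (6.67%) and 2 of the 13 (15.4%), against 4.84%. AACCNGTT and TCAAGGTCA were in no promoter of these 28 genes, against 1.67% and 0.332% of all.

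Genes known from the distal convoluted tubule were mostly higher in DCT/CNT. Of 20 such genes measured, 14 rose, 3 fell and 6 rose by more than 2-fold, with a median difference of 0.92 on the deposited and 1.32 on the normalised values, against -0.13 and 0.01 over all genes. Pvalb, the calcium-binding protein parvalbumin of the early distal convoluted tubule, had log2 values of 6.17, 8.81 and 10.09 (lowest, median, highest) in DCT/CNT and 4.37, 4.70 and 5.57 in CCD, a difference of 3.49 ± 0.40. Trpm6, the magnesium channel of the apical membrane, averaged 9.09 ± 0.63 in DCT/CNT and 7.39 ± 0.25 in CCD (SD, n = 12 each). Emx1, a homeobox transcription factor, and Ppp1r1a, an inhibitor of protein phosphatase 1, rose by 1.64 ± 0.07 and 1.66 ± 0.17.

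Egf, whose product acts on magnesium uptake, rose by 1.92 ± 0.47 and Umod, which encodes uromodulin, by 1.32 ± 0.31, and neither passed the 2-fold test. Their values overlapped between segments. The 3 genes of the list that fell were named here after their values were seen. They were Cnnm4 (-1.13, -0.75 normalised), a relative of a basolateral magnesium transport protein, and the kinases Oxsr1 (-1.04, -0.57 normalised) and Stk39 (-0.71, -0.30 normalised). These kinases phosphorylate the sodium chloride cotransporter. With the first-listed probe set of Cnnm4 the difference was 0.037.

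The DCT/CNT pools differed among themselves in some of these genes. Slc12a3 was at 9.29 in pool 2 of ZT0, at 9.61 and 9.44 in the pools of ZT8 and at 8.48 in pool 1 of ZT16, and at 10.78 to 12.09 in the other 8. In the same 4 pools Pvalb was at 6.33, 6.17, 6.20 and 6.40, against 8.14 to 10.09 in the others. Sfrp1, a secreted inhibitor of Wnt signalling, was at 8.29, 7.96, 7.98 and 7.61 there, against 9.27 to 10.36. In all 3 genes these 4 pools were the lowest of the 12, and the other pools of ZT0 and ZT16 were among the high ones. Calb1, a gene of the connecting tubule and calcium list, stayed within 12.28 to 12.75 over the 12 DCT/CNT pools (SD 0.14). Other genes of that list varied more, with an SD of 0.66 for Pth1r and 0.42 for Slc8a1. Among the distal convoluted tubule genes the SD was 1.24 for Slc12a3 but 0.18 for Emx1. How much distal convoluted and connecting tubule each pool held was not tested.

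**Figure D3:**
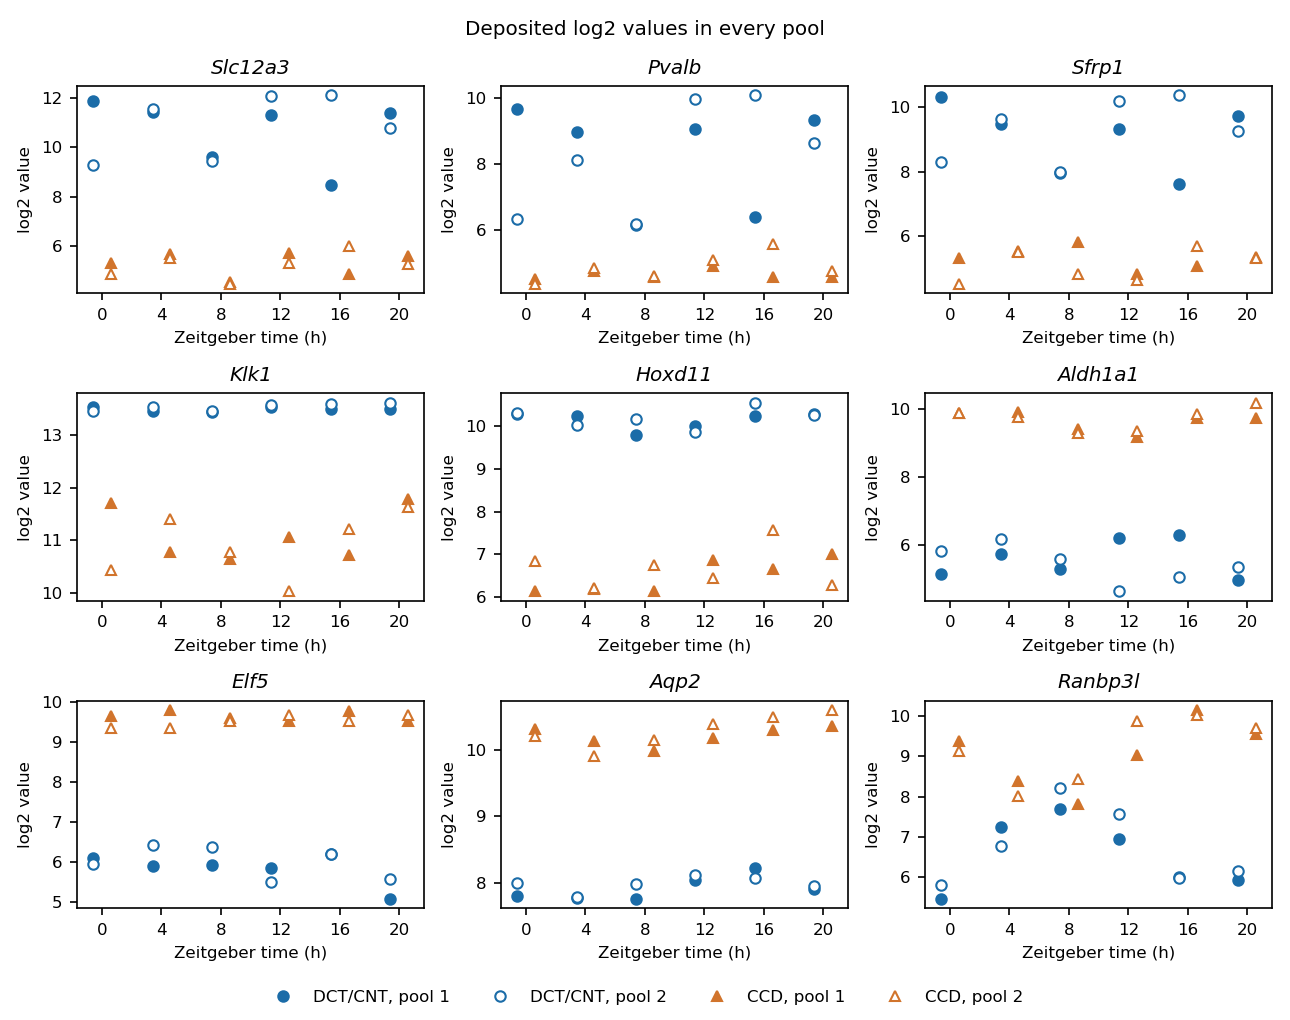
Deposited log2 value (y axes) of 9 genes in each pool by zeitgeber time (x axes, hours), with DCT/CNT as circles on the left of each time, CCD as triangles on the right, pool 1 filled and pool 2 open. Slc12a3, Pvalb and Sfrp1 are low in the same 4 DCT/CNT pools (Slc12a3 8.48 to 9.61, the others 10.78 to 12.09), Klk1 and Hoxd11 are not, and Ranbp3l comes closest between segments at ZT8.

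Genes of the connecting tubule and of calcium transport rose with them. Of 15 measured, 9 rose and 1 fell (60.0% and 6.67%, against 20.2% and 25.6% of all genes). Of the 9, 7 rose by more than 2-fold, against 0.572% of all genes. The median difference was 1.22 (1.19 normalised). Klk1, the tissue kallikrein secreted by the connecting tubule, was at 13.43, 13.52 and 13.61 in DCT/CNT pools and at 10.03, 10.93 and 11.78 in CCD pools. The values were close together in DCT/CNT and spread in CCD, and the difference was 2.50 ± 0.14. Klk1b16, a close relative, rose by 2.65 ± 0.10, and probe sets of these similar kallikreins may share signal.

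Slc8a1, the basolateral sodium-calcium exchanger, averaged 10.5 ± 0.42 in DCT/CNT and 7.98 ± 0.31 in CCD. Of its other 3 probe sets 2 were called the same way, and with the first-listed one the difference was -0.0046. S100g and Calb1, the calbindins that carry calcium through the cell, rose by 1.49 ± 0.07 and 0.75 ± 0.06. Both are bright in both segments: Calb1 had 12.28, 12.55 and 12.75 in DCT/CNT and 11.56, 11.77 and 12.12 in CCD.

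Of the hormone-related members of the list, Pth1r, the parathyroid hormone receptor, rose by 2.10 ± 0.17, Vdr, the vitamin D receptor, by 1.85 ± 0.09, and Kl, which encodes the FGF23 co-receptor Klotho, by 1.89 ± 0.06. Cyp24a1, which degrades active vitamin D, rose by 1.22 ± 0.07, but by 0.24, short of the threshold, with the first-listed probe set. Slc2a9, a urate and glucose transporter, rose by 1.69 ± 0.11. The 5 members not called in the same direction on both scales included receptors for calcium and fibroblast growth factors. The gene of the list that fell, named after its value was seen, was the calcium channel Trpv6 (-1.04 ± 0.12). Trpv5 was not analysed here.

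No subunit of the epithelial sodium channel passed the 2-fold test. Scnn1b, its beta subunit, was at 10.58, 10.84 and 10.99 in DCT/CNT and at 11.25, 11.39 and 11.49 in CCD, a fall of 0.55 on the deposited and 0.14 on the normalised scale. Scnn1g, the gamma subunit, differed by -0.34 ± 0.04 and by 0.00 after normalisation (adjusted p 0.983). Scnn1a, the alpha subunit, differed by -0.17 on the deposited and by 0.30 on the normalised values, so its direction depended on the scaling.

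Of 21 genes of principal cell sodium and potassium transport, 6 rose and 7 fell (28.6% and 33.3%, against 20.2% and 25.6% of all genes), and the median difference was -0.17 (0.00 normalised). The member past 2-fold was Fxyd4, a modulator of the sodium pump in collecting duct, at 10.72, 11.11 and 11.25 in DCT/CNT and 13.15, 13.28 and 13.35 in CCD (difference -2.17 ± 0.05). Fxyd2, the modulator known from the distal convoluted tubule, ran the other way and rose by 1.29 ± 0.10. Sgk1, the aldosterone-induced kinase, and Nedd4l, the ubiquitin ligase that removes the sodium channel, differed by -0.88 and -0.98 (-0.62 and -0.54 normalised). Kcnmb4, a subunit of the large potassium channel, rose by 1.16 ± 0.07 (0.90 normalised). It was dim, with a mean of 5.56 in DCT/CNT and 4.40 in CCD.

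Of 20 genes of water channels and the vasopressin response, 3 rose and 10 fell (15% and 50%, against 20.2% and 25.6% of all genes). Of the falls, 4 were by more than 2-fold, against 0.846% of all genes. The median difference was -0.41 (-0.22 normalised). Aqp2, the water channel that vasopressin moves to the apical membrane, was at 7.76, 7.96 and 8.23 in DCT/CNT and at 9.91, 10.26 and 10.59 in CCD, a difference of -2.29 ± 0.05. Aqp4, a basolateral water channel, differed by -3.46 ± 0.10 and Avpr2, the vasopressin receptor, by -1.73 ± 0.05. Aqp3, the other basolateral channel of principal cells, differed by -0.34 ± 0.04, and of its 3 other probe sets 2 were called lower and 1 higher.

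Elf5, an ETS transcription factor of principal cells, had 5.07, 5.92 and 6.41 in DCT/CNT and 9.34, 9.56 and 9.79 in CCD, and fell by 3.66 ± 0.11. It was the largest fall of the list and the fourth of all named genes. The 3 members that rose were Aqp8 (1.19), Pde4d (0.48), a phosphodiesterase that degrades cyclic AMP, and Aqp5 (0.31), the last 2 named after their values were seen. Aqp8 was dim, with a mean of 5.28 in DCT/CNT and 4.09 in CCD, and differed by 0.88 after normalisation.

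Genes of intercalated cells were described by cell type. Of 10 genes of type A cells, which secrete acid, 8 fell and none rose (80.0%, against 25.6% of all genes), with a median difference of -0.58 (-0.36 normalised). Slc26a7, a basolateral chloride-bicarbonate exchanger, was at 4.58, 5.27 and 6.15 in DCT/CNT and at 7.52, 7.80 and 7.96 in CCD, a difference of -2.48 ± 0.11. Dmrt2, a transcription factor, and Aqp6, an intracellular water channel, differed by -1.76 and -1.31 (-1.32 and -1.02 normalised). Kit, a receptor tyrosine kinase, differed by -0.89 (-0.43 normalised). Slc4a1, the anion exchanger that returns bicarbonate to blood, differed by -0.60 ± 0.04 (-0.38 normalised) and is bright in both segments.

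The genes shared by all intercalated cells were called in both directions. Of 14, 5 rose and 3 fell (35.7% and 21.4%, against 20.2% and 25.6% of all genes), with a median difference of -0.10 (0.12 normalised). Atp6v1b1, a proton pump subunit, rose by 0.27 ± 0.07 (0.72 normalised). Foxi1, the transcription factor of these cells, differed by -0.66 (-0.26 normalised) and Rhcg, an ammonia channel, by -0.43 (-0.12 normalised). A list for type B cells, which secrete bicarbonate, and for non-A non-B cells held 9 genes. Of these, 4 fell and none rose on both scales (44.4% fell, against 25.6% of all genes). The median difference was -0.48 (-0.09 normalised). On the deposited values 8 were lower and none higher, against 4 lower and 1 higher after normalisation. Slc26a4, the apical chloride-bicarbonate exchanger pendrin, was at 13.26, 13.42 and 13.60 in DCT/CNT and 13.23, 13.45 and 13.56 in CCD, and the segments were not told apart on the deposited values (difference -0.02 ± 0.03, adjusted p 0.654) or after quantile normalisation (adjusted p 0.0633). With equal array medians and after cyclic loess it was called higher, by 0.19 and 0.21 (adjusted p 0.000161 and 1.09e-05). The homeobox genes Hmx3 and Hmx2 differed by -1.64 ± 0.08 and -0.63 ± 0.07 (-1.53 and -0.21 normalised).

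Hox genes, which encode the homeodomain factors that record position along the body axis, were among the largest differences. Of 33 measured, 18 rose, 9 of them by more than 2-fold, and 7 fell, 1 of them by more than 2-fold. These are 54.5% and 21.2%, against 20.2% and 25.6% of all genes, and 0.572% and 0.846% passed the 2-fold call over all genes.

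In the Hox C cluster all 7 genes rose, with a median difference of 1.44 (1.72 normalised). Hoxc10 was at 9.36, 9.93 and 10.23 in DCT/CNT and at 4.36, 5.63 and 6.81 in CCD, a difference of 4.36 ± 0.16 and a 20.6-fold ratio. Hoxc4 rose by 3.66 ± 0.11, Hoxc8 by 2.11 ± 0.13 and Hoxc9 by 1.44 ± 0.07. The smaller rises included Hoxc6 (1.12) and Hoxc13 (0.64).

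In the Hox A cluster 7 of 9 rose and none fell (77.8% rose, against 20.2% of all genes). Hoxa9 was at 10.30, 10.53 and 10.80 in DCT/CNT and at 5.80, 6.87 and 7.30 in CCD (difference 3.74 ± 0.12). Hoxa10 rose 4.01-fold and Hoxa3 2.69-fold, both beyond 2-fold in the test, and Hoxa2, Hoxa5 and Hoxa11 rose by 1.15, 0.98 and 0.93 on the log2 scale.

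In the Hox D cluster 3 of 8 genes rose, 2 fell and 3 were not called on both scales. The shares were 37.5% higher and 25.0% lower, against 20.2% and 25.6% of all genes. Hoxd11 rose by 3.58 ± 0.12 and Hoxd10 by 3.20 ± 0.09, with Hoxd10 at 10.32, 10.58 and 10.93 in DCT/CNT and 6.99, 7.37 and 7.88 in CCD. Hoxd13 rose by 0.61, and Hoxd3 fell by 1.31 ± 0.09 and Hoxd1 by 0.90 ± 0.16. The Hox B cluster ran the other way: 5 of 9 fell and 1 rose (55.6% and 11.1%, against 25.6% and 20.2% of all genes). Hoxb2 was past 2-fold at -1.24 ± 0.07, and Hoxb9, Hoxb6 and Hoxb5 were at -1.45, -1.17 and -0.66.

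**Figure D4:**
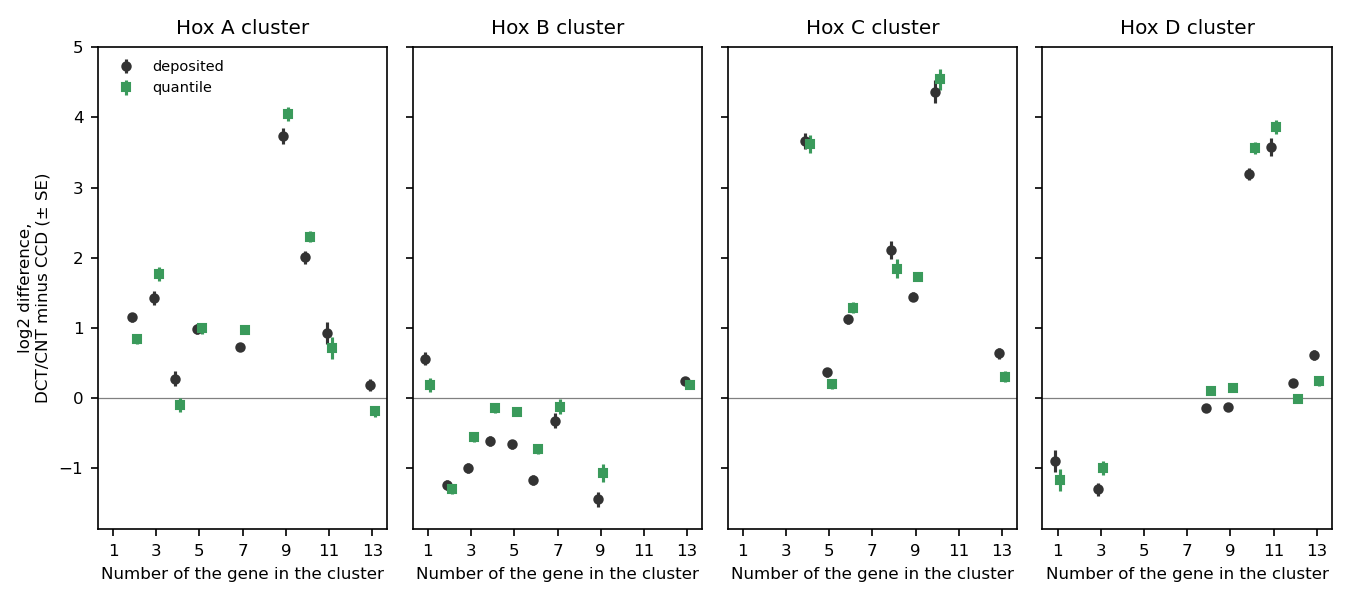
Log2 difference with its standard error (y axis, DCT/CNT minus CCD, n = 12 pools each) of the 33 measured Hox genes, by cluster and by the number of the gene in its cluster (x axes), on deposited values (circles) and after quantile normalisation (squares). The largest rises lie at Hoxc10 (4.36), Hoxa9 (3.74), Hoxc4 (3.66), Hoxd11 (3.58) and Hoxd10 (3.20), and the measured genes from Hoxb2 to Hoxb9 lie below 0 on both scales.

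Of 49 kidney lineage transcription factors and Ret pathway genes, 12 rose and 20 fell (24.5% and 40.8%, against 20.2% and 25.6% of all genes), with a median of -0.14 (0.04 normalised). Sall1, a zinc finger factor of nephron progenitors, was at 8.74, 8.98 and 9.27 in DCT/CNT and at 4.19, 5.70 and 5.98 in CCD (difference 3.40 ± 0.14). Apart from Sall1 and Emx1, the genes of the list that rose were dim, with means of 3.91 to 6.10 in DCT/CNT. Among them Esrrb, an orphan nuclear receptor, rose by 1.75 ± 0.17 without passing the 2-fold test, with means of 5.82 and 4.07. Among those that fell were Wnt9b, the ureteric bud signal that induces the nephron, by 1.77 ± 0.08, the T-box factor Tbx3 by 2.04 ± 0.08 and Klf5, a Krüppel-like factor, by 1.87 ± 0.08. The other probe set of Wnt9b was called the opposite way. The T-box gene Tbx1 rose 7.97-fold, with a mean of 5.58 in DCT/CNT and 2.59 in CCD. That CCD mean was below the 3.03 of the dimmest group of genes and may be background, so the ratio is uncertain.

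Of 50 hormone and paracrine receptors, 12 rose and 17 fell (24% and 34.0%, against 20.2% and 25.6% of all genes). Esr1, the oestrogen receptor, and Ptger3, a prostaglandin E2 receptor, rose by 1.67 ± 0.13 and 1.25 ± 0.07. Ptger1, another receptor for the same prostaglandin, was at 5.52, 6.70 and 7.32 in DCT/CNT and 8.43, 9.07 and 9.41 in CCD, and fell by 2.38 ± 0.17. P2ry2, a receptor for extracellular ATP, fell by 1.58 ± 0.13.

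Of 33 secreted ligands and proteases, 9 rose and 13 fell (27.3% and 39.4%, against 20.2% and 25.6% of all genes). Kng1, the kininogen that kallikrein cleaves, was at 11.28, 11.59 and 11.74 in DCT/CNT and 9.02, 9.48 and 9.68 in CCD, and rose by 2.11 ± 0.07, in the same direction as Klk1. Lcn2, the iron-siderophore carrier lipocalin-2, fell by 3.99 ± 0.12, with 3.77, 4.12 and 4.71 in DCT/CNT and 7.58, 8.12 and 8.55 in CCD.

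Several of the largest falls lay outside the lists of transport genes. Aldh1a1, which makes retinoic acid from retinal, was at 4.63, 5.47 and 6.28 in DCT/CNT and at 9.19, 9.76 and 10.19 in CCD, a difference of -4.17 ± 0.17. Aldh1a7, its near relative, fell by 2.83 ± 0.12, and their probe sets may share signal. Scel, sciellin of the cornified envelope, fell by 3.67 ± 0.15, and Dab1, an adaptor of reelin signalling, by 3.65 ± 0.15 with its 4 other probe sets called the same way.

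Further falls were seen in genes of the membrane and the cell surface. Anxa1, a calcium-dependent phospholipid-binding protein, fell by 3.04 ± 0.10, S100a14, an S100 protein of epithelia, by 2.79 ± 0.10, and Ncam2, a neural cell adhesion molecule, by 2.65 ± 0.10. Lrp4, a receptor of the LDL receptor family, fell by 2.62 and Tpbg, a trophoblast glycoprotein, by 2.57. The enzymes Hs3st3b1 and Chst9, sulfotransferases, and Ugt8a, a galactosyltransferase of glycolipids, fell by 2.85, 2.52 and 2.64, and of 3 other probe sets of Hs3st3b1 1 was called the opposite way. The remaining members of the 20 were Sbspon (-2.89), Kctd4 (-2.86), Egfl6 (-2.65) and Arhgef4 (-2.40).

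The largest rises outside the lists included the lipid transporter gene Abca13, at 7.74, 8.43 and 8.92 in DCT/CNT and 3.40, 4.20 and 4.80 in CCD (difference 4.12 ± 0.13). Cyp2j11, a cytochrome P450, rose by 3.97 ± 0.14 and Sfrp1 by 3.96 ± 0.30. Mymx, known in mouse muscle as a fusion peptide, rose by 3.42 ± 0.16, Aebp1, a carboxypeptidase-like matrix protein, by 2.53 ± 0.08, and Qpct, glutaminyl cyclase, by 2.61 ± 0.13. Vstm2a, Sult2a2 and Nsg2 rose by 2.86, 2.68 and 2.53. Among solute carriers, of which 73 of 347 rose and 87 fell (21.0% and 25.1%, close to the 20.2% and 25.6% of all genes), Slc36a4 and Slc15a1, carriers of amino acids and of peptides, rose by 2.12 ± 0.10 and 2.08 ± 0.15, and Slc41a2, a magnesium carrier, fell by 2.08 ± 0.06. Among 73 cytochrome P450 genes, 29 rose and 13 fell (39.7% and 17.8%). Past 2-fold were 1 rise and 3 falls, against 0.572% and 0.846% of all genes. The mean level of this family was low, 5.07 to 5.29 in DCT/CNT and 4.87 to 5.07 in CCD. Cyp7b1, an oxysterol hydroxylase, fell by 1.66 ± 0.04.

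Of 31 genes in a list of keratins and epithelial junctions, 2 rose and 19 fell (6.45% and 61.3%, against 20.2% and 25.6% of all genes), with a median of -0.54 (-0.25 normalised). The keratin family as a whole ran the other way: of 48 keratin genes, 22 rose and 10 fell (45.8% and 20.8%), with a median of 0.26 (0.15 normalised). None of the 48 rose by more than 2-fold. Their mean level was low, 5.56 to 5.78 in DCT/CNT and 5.37 to 5.59 in CCD. Near that level, in group 4 of the 10 by brightness (mean 5.57), 51.8% of genes were called higher on the deposited values. The intermediate filament genes Krt23, Krt18 and Krt8 fell by 1.97 ± 0.07, 1.32 ± 0.04 and 0.91 ± 0.05, and Cdh2, N-cadherin, by 2.17 ± 0.12. The 2 that rose, named after their values were seen, were Krt14 (0.68) and Krt5 (0.26). Among 20 claudins, the proteins of the tight junction, 5 rose and 8 fell (25.0% and 40.0%), with Cldn7 and Cldn8, both of collecting duct, at differences of -0.90 ± 0.04 and -0.92 ± 0.06. Cldn5, known from endothelium, rose by 1.26 ± 0.10.

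Of 30 matrix and integrin genes, 5 rose and 14 fell (16.7% and 46.7%, against 20.2% and 25.6% of all genes). The collagen family as a whole had the other balance, with 13 of 42 genes higher and 7 lower (31.0% and 16.7%) and a median of 0.26 (0.10 normalised). None of the 42 passed the 2-fold call. The mean level of the family was low, 5.83 to 6.05 in DCT/CNT and 5.66 to 5.87 in CCD. Fras1, a basement membrane protein, fell by 1.38 ± 0.09, Col4a6, a type IV collagen chain, by 1.30 ± 0.12 and Itgb4, the integrin of hemidesmosomes, by 1.08 ± 0.07. Nid2, nidogen 2, rose by 1.28 ± 0.15.

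Of 19 genes of glycolysis and lactate, 9 fell and none rose on both scales (47.4% fell, against 25.6% of all genes), although 3 were called higher after normalisation, with a median of -0.31 (-0.05 normalised). Aldoc, an aldolase, was at 5.81, 6.57 and 7.23 in DCT/CNT and 8.55, 8.96 and 9.60 in CCD (difference -2.34 ± 0.13). Pfkfb3 and Pfkp, which set the rate of the pathway, fell by 1.25 ± 0.07 and 1.09 ± 0.05, the glucose transporter gene Slc2a1 by 0.98 ± 0.04 and the lactate dehydrogenase gene Ldha by 0.81 ± 0.04.

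The mitochondrial lists changed direction with the scale. Of 34 oxidative phosphorylation genes, 5 were higher and 19 lower on the deposited values, against 20 higher and 4 lower after normalisation, with medians of -0.10 and 0.16. On both scales 5 rose and 4 fell (14.7% and 11.8%, against 20.2% and 25.6% of all genes). The largest of the differences called on both scales were 0.30 ± 0.03 for Ndufa1 and -0.50 ± 0.04 for Ndufs3, both subunits of complex I. The tricarboxylic acid cycle, with 16 genes, had 2 higher and 10 lower on the deposited values and 10 higher and 2 lower after normalisation, and fatty acid oxidation, with 21, had 4 and 13 and then 13 and 2. These lists therefore have no direction that holds on both scales. Of 15 cytosolic ribosomal protein genes, 6 fell and none rose (40.0% fell, against 25.6% of all genes). On the deposited values 1 was higher and 12 lower, against 4 higher and 6 lower after normalisation.

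Of 9 genes of the response to high tonicity, 6 fell, none rose and 3 were not called on both scales (66.7% fell, against 25.6% of all genes), with a median of -0.64 (-0.49 normalised). Nfat5, the transcription factor of that response, fell by 0.95 ± 0.08. Ranbp3l, a Ran-binding protein, fell by 2.49 ± 0.33, and its difference varied with time.

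Of 20 core clock genes, 4 rose and 11 fell (20% and 55.0%, against 20.2% and 25.6% of all genes). The averages over the day fell by 1.26 ± 0.08 for Cry2 and 1.02 ± 0.11 for Nr1d1, both repressors of the clock, and by 1.08 ± 0.09 for Bhlhe40, whereas Hlf, a clock output factor, rose by 1.04 ± 0.11. These genes vary over the day, Nr1d1 between 6.00 and 9.31 in DCT/CNT and between 6.34 and 10.37 in CCD, and ZT as a block takes up the part of this that the segments share.

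Whether the segment difference depended on time was asked with an F test on the 5 interaction terms of segment and ZT. It called 2 genes of 18194 (0.0110%), and 1222 had an unadjusted p under 0.05. For Ranbp3l the adjusted p was 0.00481, and the difference was -3.64 at ZT0, -1.19 at ZT4, -0.17 at ZT8, -2.20 at ZT12, -4.10 at ZT16 and -3.61 at ZT20. Its values were thus close in the 2 segments at ZT8, with 7.70 and 8.21 in DCT/CNT and 7.82 and 8.43 in CCD. The other gene, E230013L22Rik, had an adjusted p of 0.0366 and differences of -0.61 at ZT12 to -1.61 at ZT20. Both were named after their values were seen.

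Markers of cells outside the labelled segments were also compared. No detection call was used, so a low level among them may lie near the arrays' background. The 25 proximal tubule genes had a mean log2 level of 7.07 to 8.45 in DCT/CNT pools and 7.08 to 8.51 in CCD pools. Of these genes 3 rose and 2 fell (12.0% and 8.0%, against 20.2% and 25.6% of all genes). Lrp2, the endocytic receptor megalin, and Slc34a1, the phosphate cotransporter, differed by 0.16 ± 0.17 and -0.04 ± 0.23 (adjusted p 0.39 and 0.887 by limma). With equal array medians Lrp2 was called higher, by 0.37 (adjusted p 0.0484 by limma). The 16 genes of the thick ascending limb and macula densa were at 7.72 to 8.11 in DCT/CNT and 7.49 to 8.05 in CCD. Of these, 6 rose and 3 fell (37.5% and 18.8%). Slc12a1, the cotransporter that defines that limb, was at 5.33, 7.85 and 8.95 in DCT/CNT and at 4.03, 6.83 and 8.61 in CCD and did not pass the test on the deposited values (difference 0.81 ± 0.44, adjusted p 0.1). It passed after quantile normalisation (1.07, adjusted p 0.0371). Cldn19, a claudin of the same limb, fell by 1.40 ± 0.11.

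Among cells of vessels and interstitium, 9 of 13 smooth muscle, mesangial and fibroblast genes rose and 1 fell (69.2% and 7.69%, against 20.2% and 25.6% of all genes). Their mean level was 6.10 to 6.74 in DCT/CNT and 5.69 to 6.13 in CCD. Myh11, smooth muscle myosin, was at 6.50, 7.52 and 8.21 in DCT/CNT and at 5.31, 5.64 and 5.85 in CCD (difference 1.82 ± 0.13), and Acta2, smooth muscle actin, rose by 1.43 ± 0.14. Dcn, decorin of fibroblasts, fell by 1.08 ± 0.06, but rose by 0.60 with the first-listed probe set. Of 13 endothelial genes 4 rose (30.8%) and none fell. Flt1, a VEGF receptor, rose by 0.81 ± 0.09, but by 0.0073, short of the threshold, with the first-listed probe set. Of 15 leukocyte genes 4 rose (26.7%, against 20.2% of all genes) and none fell. Among 7 podocyte genes 2 rose and 1 fell, among 8 of the urothelium 4 and 2, among 4 of erythrocytes 1 and 1, and among 9 of the thin limb and inner medulla 3 fell and none rose. The part of these cells in the segment differences was not tested.

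**Figure D5:**
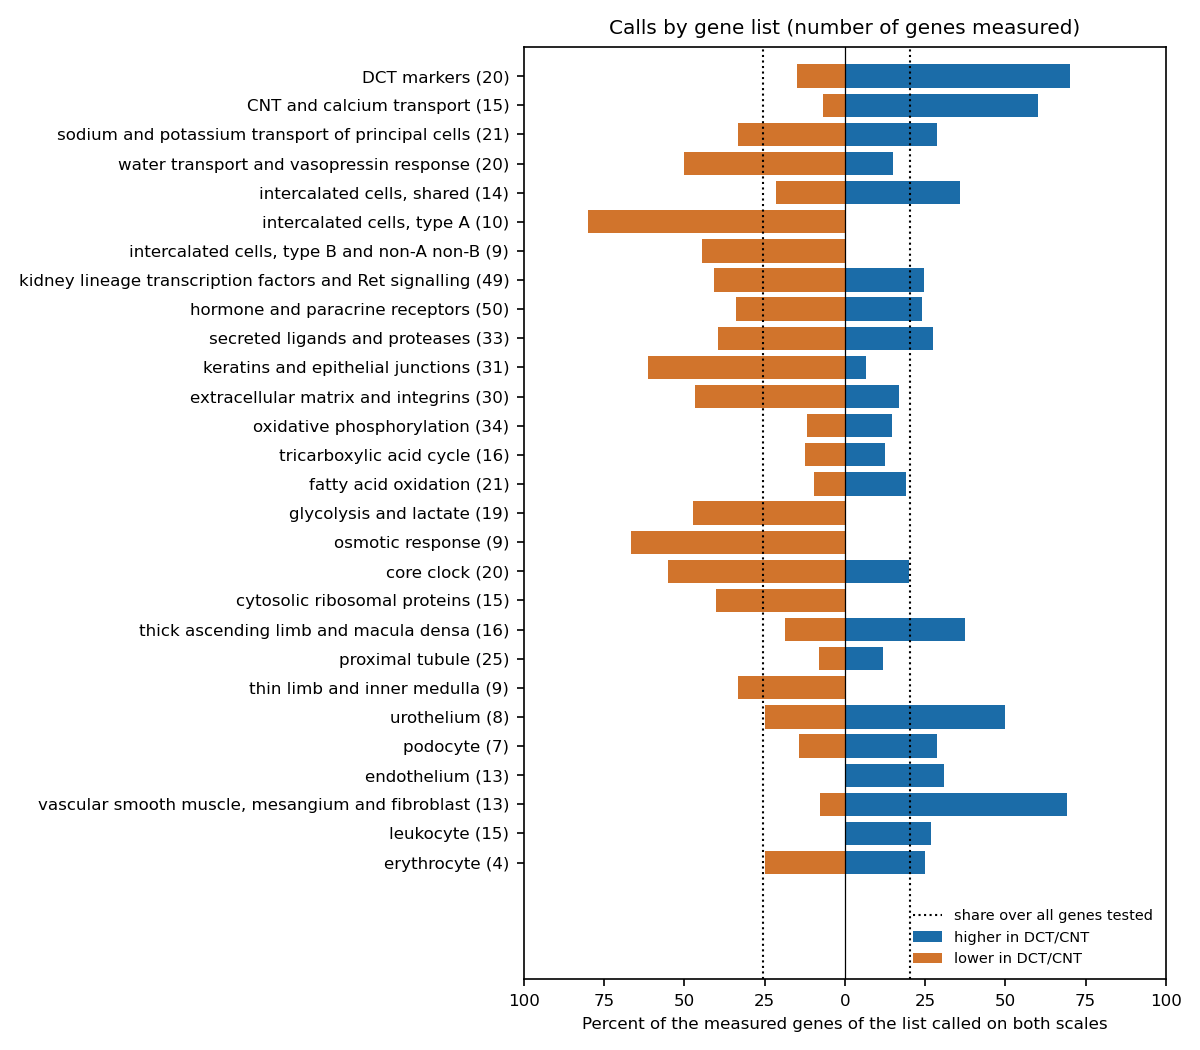
Percent of the measured genes of each list (number in brackets) called on both scales as higher (right) or lower (left) in DCT/CNT, with dotted lines at the shares over all genes, 20.2% and 25.6%. The lists of DCT markers (70.0%) and of smooth muscle, mesangium and fibroblast (69.2%) reach farthest to the right, and that of type A intercalated cells (80.0%) farthest to the left.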

How the data were processed

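The deposited log2 values of the series' matrix were made by the authors with RMA, per the submitters' processing notes; whether both segments were normalised in 1 run is not given in the sources used here. Of 45101 probe sets, 34958 carried a single symbol, 932 several and 9211 none in the platform annotation, and 34754 matched RefSeq (GRCm38.p6). All columns were used.

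The 18194 genes were fitted in limma 3.58.1 (R 4.3.3) with ZT as a block, 17 residual degrees of freedom, eBayes, treat at a log2 difference of 1 and Benjamini-Hochberg adjustment at 0.05, on deposited values and after quantile normalisation over the gene table. The fits were tested on simulated data. The genes named were the 20 largest each way with the 2-fold call and no overlap, up to 6 called and 2 uncalled members of each of 28 lists and 14 families, the defining cell markers, and a short fixed set; exceptions are stated. The genes, lists and the call on both scales were chosen with earlier results of these data known. The number of arrays limits the precision. Other scalings, models, probe set choices, filters and left-out arrays or times were tried as alternatives.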

Additional observations from a re-analysis of the deposited data

Results flagged for a closer look

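Ranbp3l was singled out because its segment difference varied with time in the F test across all genes (adjusted p 0.00481 by limma on the deposited and 0.00146 on the normalised values). The difference was -0.17 at ZT8 and -4.10 at ZT16, negative at all 6 times. E230013L22Rik was singled out on the same test (adjusted p 0.0366), with differences of -0.61 at ZT12 to -1.61 at ZT20, and did not pass after quantile normalisation (adjusted p 0.433).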

How the results depend on the processing

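Of 145 named genes, 137 neither lost a call nor turned direction under any of the 40 alternatives in which they were tested (the filter on dim genes kept 97 of them). Scnn1a turned to 0.30 after quantile normalisation, 0.043 with equal array medians and 0.31 after cyclic loess, Scnn1g to 0.017 after cyclic loess and Slc26a4 to 0.19 with equal medians and 0.21 after loess, both called higher. With the first-listed probe set Slc8a1 was at -0.0046, Dcn at 0.60 and Cnnm4 at 0.037; the cause was not tested. With only the genes above the median brightness, 724 were higher and 6989 lower (9.39% of called genes higher, against 39.2%), and 44 and 68 passed 2-fold as higher and lower. On the deposited scale alone, added after the data were seen, 177 and 336 passed it. Of called genes, 56.9% were higher with equal medians and 50.2% after loess.

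The count of genes whose difference varied with time was 1 after quantile normalisation, equal medians or loess, with a trended and robust prior, with the first-listed probe set, and without ZT0, ZT4, ZT12 or ZT20. It was 0 in limma without ZT8 or without ZT16 (1176 and 1139 genes at an unadjusted p under 0.05). With each array left out it was 1 to 7, the highest without pool 2 of DCT/CNT at ZT20, against 5399 to 5546 genes higher, 8431 to 8537 lower, and 95 to 105 and 143 to 157 beyond 2-fold. The difference between pool 1 and pool 2 correlated between segments at -0.025 to 0.086 over the 6 times. This was taken over all genes, dim ones included, and cannot settle whether pools of the same number share animals. With pool number and time as a replicate block, 5516 genes were higher and 8525 lower, 101 and 150 beyond 2-fold, and 1 varied with time.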
